A study of Homo sapiens with 36 samples.

Results

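The segment described here is the stretch of human chromosome 16 from 53.9 to 55.1 Mb (build hg19), which spans 1200 kb around the Iroquois genes IRX3 and IRX5. Its members were all regions of the 6 H3K27ac count tables and all JUNB sites that overlap this stretch. The stretch was selected on H3K27ac and JUNB values of these same libraries, and the members were then taken by position alone. Every value below is therefore a description, and the calls were not read as evidence about the segment.

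The members numbered 32 of 57075 H3K27ac regions in the table that sets POS against NEG cells, 26 of 50424 in the acute POS table and 33 of 54454 in the acute NEG table. There were 26 of 44343 in the chronic POS table, 24 of 28239 in the chronic NEG table and 25 of 53549 in the POSR table. The JUNB table held 88 members among 146555 sites. Each table has its own regions, with a constant width (end minus start) of 1001 bases in the H3K27ac tables and 201 in the JUNB table, so levels can be compared between regions of one kind. Overlapping H3K27ac members of the 6 tables were merged into 49 regions, numbered 1 to 49 along the chromosome, which formed 15 clusters when those less than 20000 bases apart were joined. A total of 11 regions were found in all 6 tables.

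SUM-229PE is a cell line of triple-negative breast cancer grown from a pleural effusion. All libraries come from this one line, sorted into EpCAM+ CD49f+ cells (POS) and EpCAM- CD49f- cells (NEG). Chromatin immunoprecipitation with sequencing for H3K27ac covered 22 libraries. There were 3 of POS and 2 of NEG cells given 30 nM trametinib, an inhibitor of the kinases MEK1 and MEK2, for 24 hours (acute). There were 2 of POS and 2 of NEG cells on day 14 of 10 nM trametinib (chronic), and 2 each of 2 kinds of cells labelled POSR1 and POSR2. The controls were 2 POS and 2 NEG libraries of day 0 of the chronic course, and 3 POS and 2 NEG libraries of cells given the solvent DMSO. JUNB was measured in 2 POS and 2 NEG libraries of DMSO cells. What sets POSR1 and POSR2 apart from POS, and whether drug was present, is not given in the labels. There was no day 14 library without drug, so drug and time in culture cannot be told apart in the chronic comparisons. Whether replicates are separate cultures is not given, so p-values measure only the spread between these libraries, which may be technical.

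Iroquois proteins are homeodomain transcription factors of the TALE class that act in the patterning of embryonic tissues. Their genes lie in clusters in which long stretches without genes hold many enhancers, and enhancers of IRX3 and IRX5 are known to lie far from their promoters, including inside neighbouring genes. H3K27ac is the acetylation of histone H3 at lysine 27, which marks active enhancers and promoters. JUNB belongs to the proteins that make up AP-1, a transcription factor that binds enhancers and whose subunits are controlled in part by the kinases ERK1 and ERK2 that MEK switches on. In the RefSeq annotation of another build (GRCh38.p14), the genes along this part of chromosome 16 follow in the order RPGRIP1L, FTO, IRX3, the long noncoding RNA gene CRNDE, IRX5, IRX6 and MMP2. No annotation of hg19 was used, so no region below is assigned to a promoter, an exon or a gene, and the sorting markers were likewise not checked at their own genes.

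Total counts in regions were 1861227 to 9212006 per H3K27ac library and 4884516 to 8947351 per JUNB library. The lowest were those of NEG cells on day 14, 1861227 and 2051968, against 3617120 and 2619054 on day 0. POS cells on day 14 had 5472638 and 5172208, so the chronic NEG comparison rests on fewer reads. Levels are given as CPM, the reads of a region relative to these totals after TMM scaling (trimmed mean of M-values) within each table. Differences are log2 fold changes with standard errors (SE) from edgeR. A region is called where its adjusted p in edgeR's quasi-likelihood test was under 0.05, with the Benjamini-Hochberg adjustment taken over all regions of its table. "Rose", "fell", "higher" and "lower" below are used only of called regions. The same DMSO libraries of POS cells stand in the POS and NEG table, the acute POS table and the POSR table, and those of NEG cells in the POS and NEG table and the acute NEG table.

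In DMSO, POS cells had less H3K27ac than NEG cells over most of the segment. Of the 32 regions, 4 were higher and 22 lower in POS cells. The libraries of the groups did not overlap in 29 of the 32, and in 47958 of all 57075 regions. Over all 57023 regions tested, 76.5% were called, of which 38.6% of those tested were higher and 38.0% lower in POS. The median log2 fold change was -1.36 in the segment and -0.04 over all regions. The windows of the same length on both sides looked different. In the window before the segment, 9 of 20 regions were higher and 5 lower in POS, with a median of 0.24. In the window after it, 9 of 14 were higher and 0 lower, with a median of 1.47. None of these 14 was lower at an unadjusted p under 0.05 in edgeR either, nor in DESeq2. The last region before the segment (chr16:53898194-53899195) had a log2 fold change of 1.36 ± 0.20 (SE) and the first inside it (region 1, chr16:53906637-53907638) one of -2.01 ± 0.30. The last inside (region 49, chr16:55035446-55036447) had -3.24 ± 0.44 and the first beyond it (chr16:55331105-55332106) 1.30 ± 0.19.

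The regions most depleted in POS cells lay close together in the middle of the segment. Region 27 (chr16:54406800-54407801) had 1.27, 1.67 and 0.954 CPM in the POS libraries and 50.1 and 53.6 CPM in the NEG libraries. The POS values rest on 10, 8 and 6 reads, against 282 and 302 reads in NEG. Its log2 fold change, -5.33 ± 0.23, was the most negative in the segment. Region 37 (chr16:54496244-54497245) had 0.507, 1.46 and 1.43 CPM in POS and 32.0 and 33.3 CPM in NEG cells (log2 fold change -4.92 ± 0.25). Region 28 (chr16:54431414-54432415) was similar, with 0.507, 1.25 and 1.59 CPM in POS against 31.7 and 32.1 CPM in NEG cells (-4.89 ± 0.25). In all 3 regions every NEG library lay far above every POS library. Region 35 (chr16:54480487-54481488), found in all 6 tables, kept a clear signal in both kinds of cells. It had 13.6, 10.0 and 12.9 CPM in POS and 57.3 and 57.1 CPM in NEG (-2.21 ± 0.18). Region 25 (chr16:54388591-54389592) at the near end of this stretch had 5.19, 7.72 and 6.84 CPM in POS and 28.6 and 29.8 CPM in NEG (-2.18 ± 0.18).

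The 4 regions higher in POS cells were regions 19, 20, 43 and 45. Region 43 (chr16:54681083-54682084) had 53.9, 43.8 and 45.0 CPM in POS and 5.16 and 8.87 CPM in NEG, a log2 fold change of 2.76 ± 0.22. Region 45 (chr16:54881054-54882055) had 32.4, 21.9 and 26.1 CPM in POS and 5.33 and 3.90 CPM in NEG (2.55 ± 0.22). Neither pair of groups overlapped. Regions 19 and 20, which are neighbours, had low levels of at most 10.2 CPM, with log2 fold changes of 1.53 ± 0.45 and 1.66 ± 0.38. The segment thus held strong regions of both kinds: region 43 lies between the stretch depleted in POS cells and region 47 (chr16:54962081-54963082), which had 26.5, 16.5 and 21.5 CPM in POS and 70.2 and 70.6 CPM in NEG (-1.69 ± 0.19).

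The region with the highest level did not separate the groups. Region 15 (chr16:54060949-54061950) had 95.0, 80.3 and 84.5 CPM in POS and 81.8 and 92.4 CPM in NEG cells, and the groups overlapped (-0.01 ± 0.20). Region 16 (chr16:54114543-54115544) had 51.5, 39.9 and 43.3 CPM in POS and 61.5 and 55.5 CPM in NEG. Its groups did not overlap, but it was not called (-0.38 ± 0.19). Region 4 (chr16:53927497-53928498), with 24.8, 23.8 and 23.7 CPM in POS and 19.2 and 18.4 CPM in NEG, was not called either (0.36 ± 0.17). Of the other regions shared by all 6 tables, region 43 was higher in POS and the remaining 7 were lower. Region 18 had a log2 fold change of -1.64 ± 0.18, region 8 one of -0.76 ± 0.20, region 44 one of -0.68 ± 0.17 and region 23 one of -0.62 ± 0.19.

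**Figure D1:**
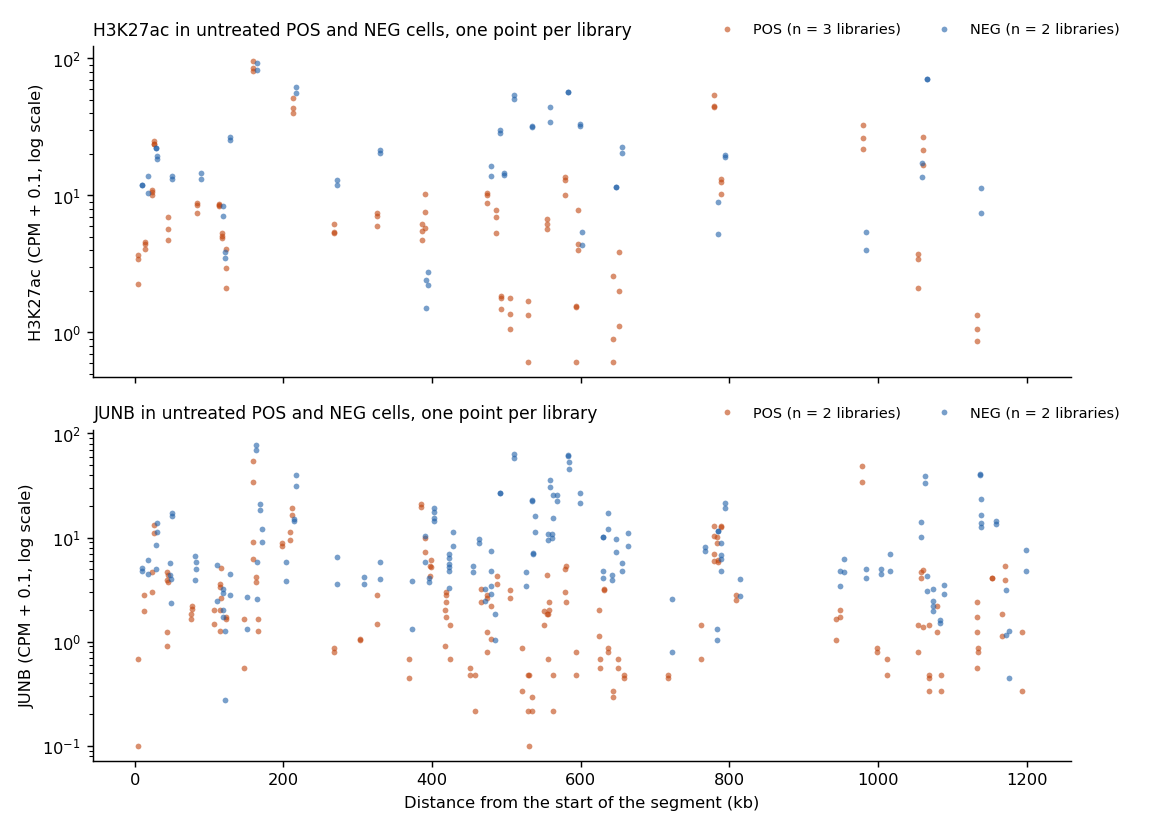
H3K27ac in the 32 regions (top) and JUNB at the 88 sites (bottom) of the segment in DMSO, plotted as CPM + 0.1 on a log axis against distance from the segment's start in kb, one point per library (POS in red, NEG in blue, set slightly apart). Blue points stand above red ones over much of the stretch from region 25 (488.6 kb) to region 41 (652.8 kb), while region 43 (780.9 kb) and region 45 (980.6 kb) show the opposite order, with 43.8 to 53.9 CPM of H3K27ac in POS and 5.16 and 8.87 CPM in NEG in region 43.

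JUNB followed the same order. Of the 88 sites, 86 passed the filter on low counts, and 8 of these were higher and 63 lower in POS cells. Over all 141580 sites tested, 57.9% were called, with 28.5% higher and 29.4% lower in POS. The median log2 fold change was -1.90 in the segment and -0.02 over all sites. The window before the segment had 26 higher and 11 lower of 73 sites tested (median 0.39), and the window after it 16 higher and 15 lower of 48 (median -0.18). At the edges, the site before the segment had a log2 fold change of 0.00 ± 0.25 and the first inside it -3.72 ± 0.56. The last inside had -3.37 ± 0.48 and the first after it -1.75 ± 0.60. The 2 sites that were not tested (chr16:54270772-54270973 and chr16:54619451-54619652) had at most 3 reads in any POS library, against 32 and 7 reads at the first and 21 and 4 reads at the second in NEG.

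The sites with most JUNB in NEG cells and little in POS cells lay in the same stretch as the H3K27ac regions depleted in POS. The site in region 27 (chr16:54407429-54407630) had 2.55 and 3.07 CPM in POS and 57.5 and 63.8 CPM in NEG (log2 fold change -4.45 ± 0.30). The site in region 35 (chr16:54480604-54480805) had 4.88 and 2.87 CPM in POS and 62.7 and 60.2 CPM in NEG (-3.92 ± 0.28). The largest fold changes were at sites with almost no reads in POS cells. The site in region 34 (chr16:54465374-54465575) had 1 and 2 reads in POS and 191 and 145 reads in NEG. That is 0.116 and 0.383 CPM in POS against 22.4 and 25.3 CPM in NEG (-6.66 ± 0.46). The first site in region 28 (chr16:54431469-54431670) had 1 and 2 reads in POS against 190 and 131 in NEG (-6.59 ± 0.46). The site in region 29 (chr16:54436180-54436381) had 1 read in each POS library against 136 and 64 in NEG (-6.41 ± 0.53). With so few reads in POS, these fold changes are imprecise, but no POS library came near a NEG library at any of them.

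Region 45 held the site with the largest difference in favour of POS cells (chr16:54880888-54881089), with 48.7 and 34.3 CPM in POS and 3.99 and 4.88 CPM in NEG (3.24 ± 0.27). Region 43 held 2 sites that differed from each other. The site at chr16:54681235-54681436 had 5.81 and 6.90 CPM in POS and 0.939 and 1.22 CPM in NEG (2.55 ± 0.42). The one at chr16:54681813-54682014 had 12.9 and 10.3 CPM in POS and 11.4 and 11.5 CPM in NEG, and its groups overlapped (0.03 ± 0.26). A further site higher in POS (chr16:54288142-54288343), at the edge of region 19, had 20.9 and 19.4 CPM in POS against 10.2 and 5.75 CPM in NEG (1.29 ± 0.26). The site with the most JUNB of all, in region 15 (chr16:54061149-54061350), had 54.7 and 34.3 CPM in POS and 77.4 and 68.7 CPM in NEG (-0.71 ± 0.23). It was called lower in POS, although the H3K27ac of that region did not separate the groups. Without POS replicate 2 the site was no longer called (-0.40).

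Of the 88 sites, 29 lay with at least 50% of their length in an H3K27ac region of the POS and NEG table, which is 33.0% of the sites, against 34.3% of all JUNB sites. They lay in 26 of the 32 regions. Site and region were both called in 22 pairs, and in all 22 they went the same way, 20 lower and 2 higher in POS. Over the whole series, 27834 of 28889 such pairs, or 96.3%, went the same way. The H3K27ac and JUNB libraries were of the same cell groups, but the labels do not pair them. The other 59 sites lay outside the H3K27ac regions of that table, among them a strong one at chr16:55034630-55034831, with 1.63 and 2.30 CPM in POS and 40.2 and 41.0 CPM in NEG (-4.41 ± 0.31).

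**Figure D2:**
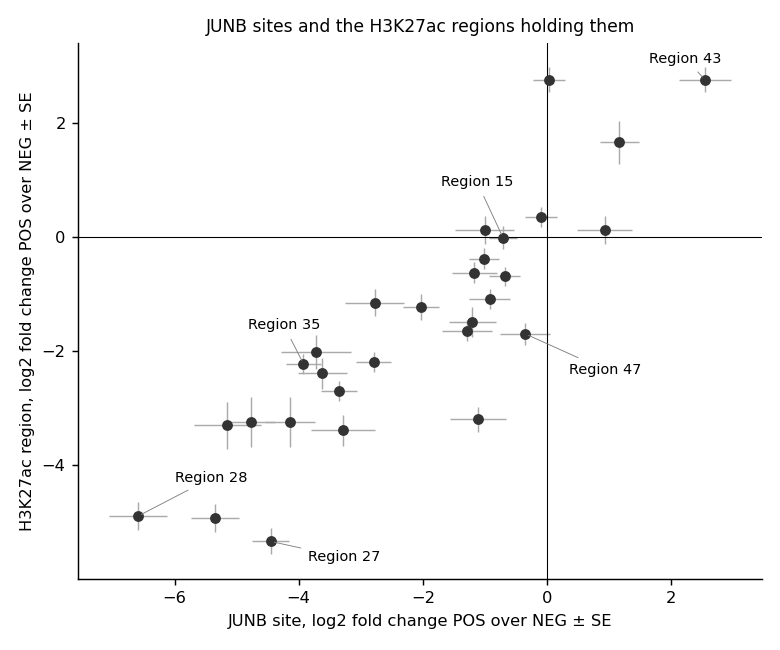
For the 29 JUNB sites inside H3K27ac regions of the segment, the log2 fold change of POS over NEG of the site (horizontal) against that of its region (vertical), both with SE, from 2 POS and 2 NEG libraries for JUNB and 3 POS and 2 NEG libraries for H3K27ac. Most points lie at the lower left, down to -6.59 for JUNB and -5.33 for H3K27ac, and both sites of region 43 stand at 2.76 on the vertical axis, at 2.55 and 0.03 on the horizontal one.

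After 24 hours of trametinib, H3K27ac in POS cells rose at 13 of the 26 regions and fell at 3. Over all 50345 regions tested, 52.7% were called, with 26.7% higher and 26.0% lower. The median log2 fold change was 0.40 in the segment, 0.02 over all regions, 0.39 in the window before and -0.16 in the window after. Region 11 (chr16:54016261-54017262) had 25.2, 25.4 and 28.3 CPM under trametinib and 7.67, 8.22 and 7.86 CPM in DMSO (1.75 ± 0.15). Region 23 (chr16:54376000-54377001) had 29.6, 33.2 and 34.2 CPM under trametinib and 10.5, 9.06 and 10.1 CPM in DMSO (1.71 ± 0.15). In both regions each treated library held more than any DMSO library. Region 45 (chr16:54880607-54881608), already higher in POS than in NEG cells in DMSO, had 70.5, 66.8 and 78.5 CPM under trametinib and 34.2, 25.3 and 28.6 CPM in DMSO (1.29 ± 0.16). Region 12 (chr16:54019231-54020232), beside region 11, had 12.2, 12.4 and 10.1 CPM under trametinib and 4.63, 5.27 and 4.87 CPM in DMSO (1.24 ± 0.20).

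The 3 regions that fell in POS cells were regions 16, 17 and 47. Region 16 had 27.2, 26.9 and 30.4 CPM under trametinib and 49.4, 40.2 and 42.7 CPM in DMSO (-0.64 ± 0.15), without overlap. Region 47 had 17.8, 10.7 and 15.2 CPM under trametinib and 26.2, 16.6 and 20.4 CPM in DMSO (-0.54 ± 0.15). Its groups overlapped, since the highest treated library lay above the lowest DMSO library, and without DMSO replicate 1 it was no longer called (-0.32). Region 17 fell by 1.52 ± 0.35 on the log2 scale at a level of at most 6.13 CPM. Region 15, the strongest, had 93.2, 83.5 and 102 CPM under trametinib and 91.5, 80.3 and 83.8 CPM in DMSO, with overlapping groups (0.14 ± 0.17). Among the other regions of all 6 tables, 8 (0.70 ± 0.16), 35 (0.71 ± 0.14) and 43 (0.37 ± 0.16) rose. Regions 4, 18, 25 and 44 were not called, with log2 fold changes of 0.09 to 0.31.

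In NEG cells, 24 hours of trametinib raised H3K27ac at 16 of the 33 regions and lowered it at 8. Over all 54409 regions tested, 36.5% were called, with 17.2% higher and 19.3% lower. DESeq2 called 8 members higher and 3 lower. Of all regions it called 10151, where edgeR called 19878. In edgeR, 5 members were lower without trametinib replicate 1 and 4 without DMSO replicate 2. The median log2 fold change was 0.39 in the segment, 0.04 over all regions, 0.44 in the window before and -0.32 in the window after, which held 6 regions. Region 43 (chr16:54680924-54681925), low in untreated NEG cells, had the largest rise. It had 27.7 and 24.1 CPM under trametinib and 4.17 and 8.96 CPM in DMSO (1.98 ± 0.19). Region 39 (chr16:54532732-54533733) had 15.96 and 15.24 CPM under trametinib and 7.75 and 5.78 CPM in DMSO (1.20 ± 0.21). Region 10 (chr16:54008114-54009115) had 15.8 and 18.7 CPM under trametinib and 7.35 and 7.77 CPM in DMSO (1.19 ± 0.20). None of these groups overlapped.

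Among regions at or above the median level of the table, the 3 largest falls in NEG cells were in regions with at most 1.75 CPM in untreated POS cells. Below that level, region 49 fell by 1.05 ± 0.26. Region 27 had 23.2 and 28.0 CPM under trametinib and 56.0 and 60.2 CPM in DMSO (-1.18 ± 0.13). Region 28 had 18.2 and 16.1 CPM under trametinib and 35.4 and 36.1 CPM in DMSO (-1.06 ± 0.15). Region 26 (chr16:54394186-54395187) had 7.68 and 8.85 CPM under trametinib and 16.3 and 15.7 CPM in DMSO (-0.95 ± 0.20). The treated libraries of all 3 regions lay well below the DMSO libraries, yet still above every untreated POS library of the table that sets POS against NEG, with the caution that the tables were scaled separately. Region 25, which adjoins region 26, fell by 0.35 ± 0.14. Other regions of the same stretch rose, such as region 35 with 75.6 and 95.5 CPM under trametinib and 59.4 and 63.7 CPM in DMSO (0.47 ± 0.11). Region 15 rose in NEG cells, with 155 and 143 CPM under trametinib and 92.0 and 104 CPM in DMSO (0.61 ± 0.10). Regions 18 (0.53 ± 0.14) and 44 (0.43 ± 0.15) rose as well, and region 23 fell by 0.56 ± 0.18. The 3 members that DESeq2 called lower were regions 26, 27 and 28, so it called none of the falls of regions 23, 25 and 49. Regions 4 (0.32 ± 0.15), 8 (0.38 ± 0.17), 16 (-0.10 ± 0.11) and 47 (0.12 ± 0.10) were not called.

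**Figure D3:**
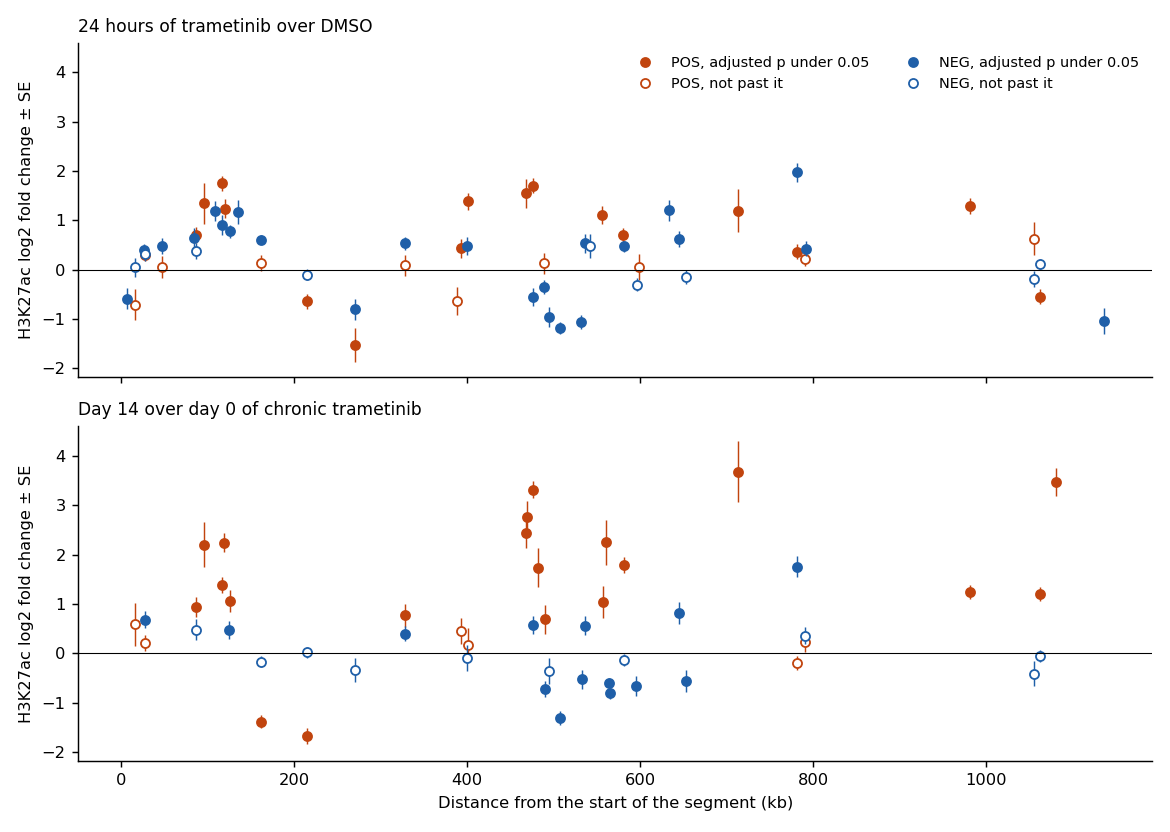
Log2 fold change of H3K27ac with SE against distance from the segment's start in kb, for 24 hours of trametinib over DMSO (top) and day 14 over day 0 (bottom), in POS (red) and NEG cells (blue), with filled points where the adjusted p was under 0.05. POS points of the lower panel lie mostly above 0, up to 3.68 at region 42. Its NEG points from region 25 (488.6 kb) to region 36 (594.9 kb) lie mostly below 0, down to -1.31 at region 27.

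On day 14 of chronic trametinib, H3K27ac in POS cells was higher than on day 0 at 18 of the 26 regions and lower at 2. Over all 44304 regions tested, 77.8% were called, with 39.5% higher and 38.2% lower. Median log2 fold changes were 1.13 in the segment, 0.02 over all regions, 0.47 in the window before and 0.39 in the window after. Region 23 (chr16:54375625-54376626) had 87.0 and 94.9 CPM on day 14 and 8.03 and 10.8 CPM on day 0 (3.32 ± 0.17), which made it the strongest region of the segment on day 14. Its neighbour, region 22, had 2 separate members in this table. Both rose, by 2.44 ± 0.31 at chr16:54367618-54368619 and by 2.76 ± 0.33 at chr16:54368655-54369656. Region 12 (chr16:54018829-54019830) had 33.6 and 33.1 CPM on day 14 and 7.32 and 6.58 CPM on day 0 (2.24 ± 0.19).

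Region 35 had 41.5 and 46.9 CPM in POS cells on day 14 and 11.2 and 15.3 CPM on day 0 (1.78 ± 0.16), and its groups did not overlap. Region 47 had 70.5 and 64.1 CPM on day 14 and 30.0 and 27.8 CPM on day 0 (1.21 ± 0.14), a rise where the 24 hour comparison gave a fall. Region 45 had 59.8 and 54.7 CPM on day 14 and 24.8 and 23.3 CPM on day 0 (1.24 ± 0.15). The 2 largest rises were in regions with few reads on day 0. Region 42 (chr16:54612424-54613425) had 37 and 27 reads on day 14 and 1 and 3 reads on day 0 (3.68 ± 0.61). Region 48 (chr16:54980267-54981268), in no other table, had 121 and 117 reads on day 14 and 6 and 12 reads on day 0 (3.47 ± 0.29). The regions depleted most in untreated POS cells, 27, 28 and 37, have no region in the chronic POS table.

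The 2 regions that fell in POS cells on day 14 were strong on day 0. Region 15 (chr16:54060960-54061961) had 43.8 and 40.8 CPM on day 14 and 121 and 97.8 CPM on day 0 (-1.38 ± 0.14). Region 16 (chr16:54114583-54115584) had 16.6 and 15.7 CPM on day 14 and 59.2 and 41.6 CPM on day 0 (-1.68 ± 0.15). Both day 14 libraries lay below both day 0 libraries in each region. With these falls and the rise of region 23, the order of the regions changed: region 23 was the highest of the 3 on day 14 and region 15 on day 0. Region 8 (0.94 ± 0.20), region 18 (0.77 ± 0.23) and region 25 (0.69 ± 0.29) rose. Region 43 had 44.3 and 42.0 CPM on day 14 and 53.4 and 44.6 CPM on day 0 and was not called (-0.20 ± 0.14), nor were regions 4 (0.21 ± 0.16) and 44 (0.23 ± 0.20).

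In NEG cells, 7 of the 24 regions were higher on day 14 than on day 0 and 7 lower. Over all 28179 regions tested, 48.6% were called, with 24.8% higher and 23.8% lower. DESeq2 called 1 member higher and 4 lower, and edgeR called 2 higher and 5 lower without day 14 replicate 1, and 3 higher and 5 lower without day 0 replicate 1. Calls over all regions fell too, from 13698 to 7493 with DESeq2 and to 11151 and 11529 without these libraries. The median log2 fold change was -0.12 in the segment and 0.00 over all regions, 0.67 in the window before and 0.52 in the window after, which held 5 regions. The largest rise was again in region 43 (chr16:54681144-54682145), with 35.1 and 38.8 CPM on day 14 and 9.40 and 13.1 CPM on day 0 (1.76 ± 0.21). Its mean level was just under the median of its table, so it was named here as a region found in all 6 tables and not by its change. Region 4 (chr16:53927481-53928482) had 43.5 and 34.5 CPM on day 14 and 23.6 and 25.5 CPM on day 0 (0.68 ± 0.17). Region 23 had 35.7 and 29.2 CPM on day 14 and 21.4 and 22.8 CPM on day 0 (0.57 ± 0.18), without overlap. Region 13 (chr16:54024629-54025630) had 32.0 and 30.7 CPM on day 14 and 21.4 and 24.7 CPM on day 0 (0.47 ± 0.18). DESeq2 called none of regions 4, 23 and 13 (adjusted p = 0.063, 0.17 and 0.28).

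The falls that edgeR called in NEG cells on day 14 lay between regions 25 and 41. The 4 members that DESeq2 called lower were regions 25, 27, 33 and 34, so it did not call the fall of region 41. In edgeR the same stretch also held rises, in region 29 (0.56 ± 0.19) and region 40 (0.82 ± 0.23). Both were under the median level of their table. DESeq2 called only 1 member higher, so it called at most 1 of regions 18, 29 and 40. Region 27 (chr16:54406700-54407701) had 30.4 and 33.1 CPM on day 14 and 81.7 and 76.1 CPM on day 0 (-1.31 ± 0.14). On day 0 the highest levels of the segment in this table were in regions 33 and 34, which have no counterpart in the other 5 H3K27ac tables. Region 33 (chr16:54464099-54465100) had 155 and 137 CPM on day 14 and 236 and 206 CPM on day 0 (-0.60 ± 0.09). Region 34 (chr16:54465293-54466294) had 98.0 and 98.7 CPM on day 14 and 179 and 168 CPM on day 0 (-0.81 ± 0.10). Both day 14 libraries stood below both day 0 libraries in all 3 regions. Region 25 (chr16:54389081-54390082) had 26.7 and 26.4 CPM on day 14 and 40.7 and 48.7 CPM on day 0 (-0.72 ± 0.17). Region 15 had 112 and 105 CPM on day 14 and 121 and 124 CPM on day 0 and was not called (-0.17 ± 0.10). Region 18 rose (0.39 ± 0.15), and regions 8 (0.48 ± 0.21), 16 (0.02 ± 0.12), 35 (-0.14 ± 0.12), 44 (0.36 ± 0.18) and 47 (-0.05 ± 0.11) were not called.

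**Figure D4:**
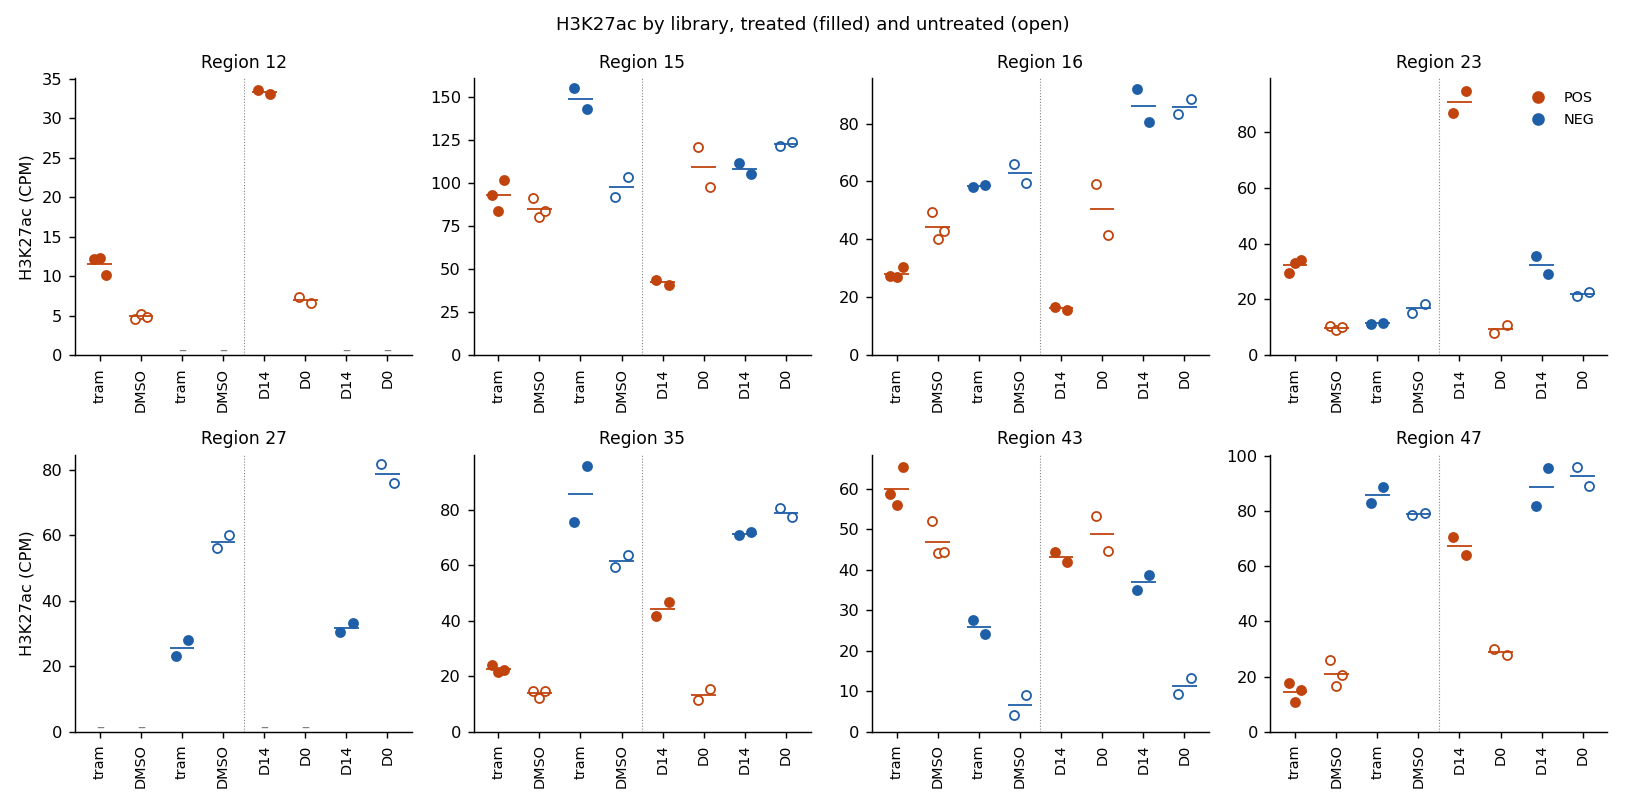
H3K27ac in CPM by library for 8 regions in POS (red) and NEG cells (blue), with 24 hours of trametinib (tram) beside DMSO left of the dotted line and day 14 (D14) beside day 0 (D0) right of it; filled points are treated, open points untreated, lines are means, and a dash marks a group in whose table the region is absent. Region 23 reaches 87.0 and 94.9 CPM in POS cells on day 14, region 43 is raised in treated NEG cells, and region 27, absent from both POS tables plotted, is lower in both treated NEG groups.

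The difference between the responses of NEG and POS cells was tested as an interaction over regions that matched 1 to 1 between tables with a reciprocal overlap of 50%. In the acute arm, 14 members could be matched. The response was higher in NEG than in POS cells at 3 of them and lower at 2, where 25.6% of 18186 matched regions were called, with 14.1% higher and 11.5% lower in NEG. Region 23 differed most. Its log2 fold change in this fit was -0.50 ± 0.19 in NEG and 1.83 ± 0.13 in POS, a difference of -2.33 ± 0.23. Region 43 had 2.03 ± 0.21 in NEG and 0.49 ± 0.11 in POS, a difference of 1.55 ± 0.24. Region 11 rose in both, by 0.97 ± 0.21 in NEG and by 1.88 ± 0.14 in POS, a difference of -0.91 ± 0.26. Regions 47 (difference 0.60 ± 0.19) and 16 (0.47 ± 0.17) were the others called, and DESeq2 called neither. The number of calls was 3 without trametinib replicate 2 or DMSO replicate 1 of POS and without either trametinib library of NEG, and 8 without DMSO replicate 2 of POS. Regions 23 and 43 stayed called whichever library was left out. Region 11 was no longer called without trametinib replicate 1 or DMSO replicate 2 of NEG.

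In the chronic arm, 12 members could be matched. The response was higher in NEG than in POS cells at 3 and lower at 7, where 62.6% of 15794 matched regions were called, with 31.9% higher and 30.7% lower in NEG. Region 23 again differed most, with 0.56 ± 0.19 in NEG and 3.83 ± 0.15 in POS, a difference of -3.27 ± 0.26. Region 35 had -0.15 ± 0.13 in NEG and 2.29 ± 0.15 in POS (-2.44 ± 0.20), and region 25 had -0.73 ± 0.18 in NEG and 1.20 ± 0.25 in POS (-1.94 ± 0.31). Region 47 had -0.06 ± 0.12 in NEG and 1.72 ± 0.12 in POS (-1.78 ± 0.17). The remaining regions with a response lower in NEG were 13 (-1.11 ± 0.29), 8 (-0.98 ± 0.29) and 18 (-0.90 ± 0.27). The 3 with a response higher in NEG were 43 (1.44 ± 0.25), 16 (1.18 ± 0.19) and 15 (0.70 ± 0.16). In regions 15 and 16 the fall was in POS cells, by 0.88 ± 0.11 and 1.17 ± 0.14, with -0.18 ± 0.12 and 0.01 ± 0.12 in NEG. The POS values of this fit lie above those of the chronic POS table alone, 3.83 against 3.32 in region 23, since the scaling rests on the matched regions. With the scaling factors of each full table, the median difference over all matched regions was 0.53 in place of 0.02, and regions 8 (-0.47), 13 (-0.60) and 18 (-0.39) were no longer called.

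Against untreated POS cells, the 4 libraries of POSR2 and POSR1 taken as one group were higher at 5 of the 25 regions and lower at 6. Over all 53240 regions tested, 36.1% were called, with 17.5% higher and 18.5% lower. Median log2 fold changes were -0.08 in the segment and 0.01 over all regions. Region 47 (chr16:54962105-54963106) had 47.6 and 47.8 CPM in POSR2, 40.3 and 37.1 CPM in POSR1 and 24.6, 15.1 and 20.0 CPM in POS (1.11 ± 0.19). Region 16 (chr16:54114544-54115545) had 19.7 and 18.8 CPM in POSR2, 16.7 and 16.8 CPM in POSR1 and 48.9, 37.5 and 41.1 CPM in POS (-1.24 ± 0.15). Every POSR library stood above every POS library in region 47 and below every one in region 16. Region 11 had 20.0 and 17.2 CPM in POSR2, 8.57 and 8.84 CPM in POSR1 and 7.47, 7.26 and 5.75 CPM in POS (1.00 ± 0.33). Region 23 had 21.3 and 21.4 CPM in POSR2, 12.4 and 12.1 CPM in POSR1 and 9.88, 7.85 and 9.68 CPM in POS (0.87 ± 0.26). Regions 8 and 22 were the others that were higher. The calls rest on few libraries: 1 member was higher and 6 lower without POS replicate 2 or without POS replicate 3, and only 2 members were higher without POS replicate 1 or without either POSR2 library. Calls over all regions fell as well, from 19204 to 14485 without POS replicate 2 and to 11293 without POS replicate 3. The call of region 23 was lost without any one of the 3 POS libraries, and that of region 11 without any one of them or of the 2 POSR2 libraries. When POSR1 and POSR2 kept their own means in the fit, 7 members were higher and 10 lower, and 31919 of all regions were called. Regions 17, 19, 20, 25 and 38, all at most 9.61 CPM in any library, were lower. Region 15, with 98.1 and 98.8 CPM in POSR2, 106 and 112 CPM in POSR1 and 90.5, 74.7 and 80.6 CPM in POS, did not overlap but was not called (0.34 ± 0.13). It was called by DESeq2, with library totals as the scaling and without POS replicate 1.

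POSR2 and POSR1 differed from each other within the segment. POSR2 was higher than POSR1 at 11 of the 25 regions and lower at 0, where 40.5% of all 53524 regions tested were called, with 21.2% higher and 19.3% lower in POSR2. At an unadjusted p under 0.05 in edgeR, and in DESeq2, 0 of the 25 were lower too. Region 35 (chr16:54479897-54480898) showed the widest gap. It had 27.04 and 24.05 CPM in POSR2, 1.83 and 1.55 CPM in POSR1 and 14.1, 10.6 and 13.9 CPM in POS. It was higher than POS in POSR2 (0.97 ± 0.14) and lower in POSR1 (-2.95 ± 0.25), and POSR2 exceeded POSR1 by 3.92 ± 0.23. Region 9 (chr16:53994404-53995405) had 7.30 and 8.67 CPM in POSR2, 1.40 and 1.43 CPM in POSR1 and 0.723, 2.16 and 1.82 CPM in POS (POSR2 over POSR1 2.48 ± 0.38). Region 12 (chr16:54018250-54019251) had 13.4 and 15.4 CPM in POSR2, 3.93 and 2.15 CPM in POSR1 and 3.25, 5.69 and 5.60 CPM in POS (2.26 ± 0.25). In these 3 regions both POSR2 libraries stood above all others.

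POSR2 by itself was higher than POS at 10 regions and lower at 7, where 57.4% of all regions were called, with 28.2% higher and 29.2% lower. POSR1 by itself was higher at 5 and lower at 13, where 55.9% were called, with 26.5% higher and 29.4% lower. The 5 higher calls of POSR1 depend on the setting: 2 were higher with DESeq2 or with library totals as the scaling, 1 without either POSR1 library, and 2 to 3 without any one of the other libraries. Without POSR1 replicate 2, 8 were lower. Region 18 was not called in POSR2 against POS (-0.36 ± 0.26) and was lower in POSR1 (-2.16 ± 0.34), with POSR2 over POSR1 at 1.81 ± 0.37. Region 45 was higher than POS in POSR2 (0.44 ± 0.14) and lower in POSR1 (-0.45 ± 0.16). Regions 43 and 44 were not called in POSR2 (0.08 ± 0.16 and 0.00 ± 0.15) and were lower than POS in POSR1 (-0.45 ± 0.16 and -0.46 ± 0.17). Region 16 was lower in both, by 1.15 ± 0.15 in POSR2 and by 1.35 ± 0.16 in POSR1. Region 47 was higher in both, by 1.24 ± 0.15 in POSR2 and by 0.93 ± 0.16 in POSR1.

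**Figure D5:**
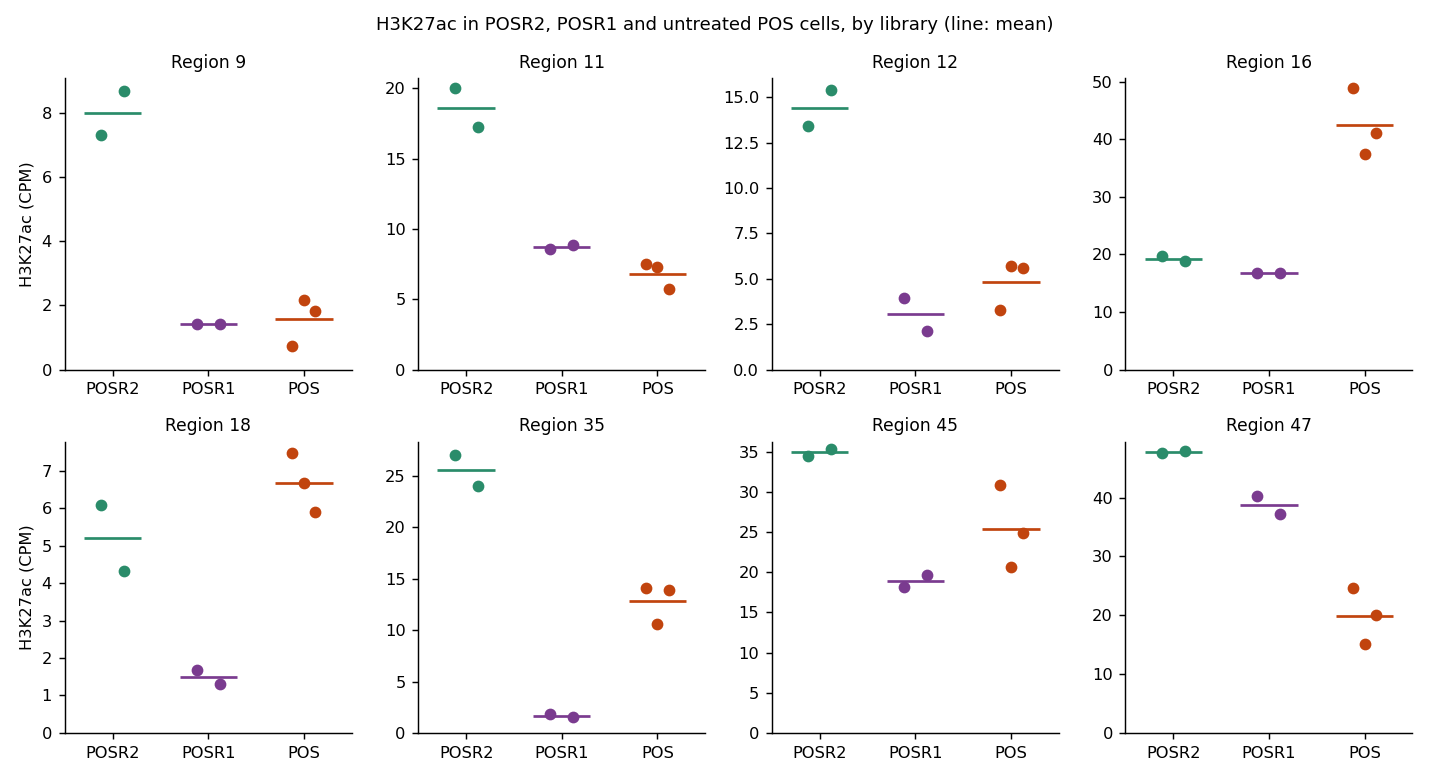
H3K27ac in CPM by library for 8 regions in POSR2 (green), POSR1 (purple) and untreated POS cells (red), with lines at the means. Region 35 is highest in POSR2 at 27.04 and 24.05 CPM and near 0 in POSR1 at 1.83 and 1.55 CPM, while both kinds of POSR cells lie below POS in region 16 and above it in region 47.

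The directions above can be set side by side for the regions of all 6 tables. Region 16 was lower than its control in POS cells after 24 hours, on day 14 and in POSR1 and POSR2, and was not called in NEG cells in either arm. Region 23 was higher in POS cells after 24 hours and on day 14 and in POSR2. In POSR1 it was called with a small margin (0.40 ± 0.17, adjusted p = 0.037 in edgeR), where the count of higher calls depends on the setting. In NEG cells it was lower after 24 hours and higher on day 14, and DESeq2 made neither call. The day 14 call was also lost without replicate 1 of either day. Region 43 was higher in NEG cells after 24 hours and on day 14. In POS cells it was called higher after 24 hours with a small margin (0.37 ± 0.16, adjusted p = 0.042 in edgeR), and was not called on day 14 (-0.20 ± 0.14). The acute POS and POSR comparisons share their DMSO libraries, so they are not independent of each other. In the authors' deposited table of POS against NEG, 3 of the 32 regions were higher and 19 lower in POS at an adjusted p under 0.05, and all 22 were called here in the same direction. In the authors' deposited table of JUNB, 5 of the 88 sites were higher and 50 lower in POS, likewise all called here in the same direction. The authors' deposited tables held fewer calls than edgeR in NEG cells, with 5 higher and 2 lower after 24 hours and 1 higher and 3 lower on day 14. For POS cells, the authors' deposited tables had 11 higher and 3 lower after 24 hours and 15 higher and 2 lower on day 14. All of these were called here in the same direction. In the authors' deposited table of POSR against POS, 4 were higher and 6 lower, of which 9 were called here in the same direction and region 15 was not. The authors' calls over all regions were not counted. Their member counts therefore serve only to compare calls with those made here, and not to set the segment apart. Each library averages many cells, so a level that differs in every cell and one that differs in a share of the cells cannot be told apart.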

How the data were processed

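Each of the 7 deposited count tables gives raw counts of reads per region and library, made by the authors over a union list of MACS2 regions. Tools listed in the submitters' processing notes are STAR 2.5.2b, cutadapt 1.12, MACS2, featureCounts and DESeq2, with the build hg19. How each was set is not given in the sources used here. As for coordinates, the base that starts count from (0 or 1) is stated in no header. The columns of the acute trametinib counts carry another drug code and were matched to their libraries through the table's name and the sample descriptions. The authors' deposited DESeq2 tables give a mean signal (counts divided by size factors), log2 fold changes, a Wald score, and raw and adjusted p-values. Of these, the direction of the log2 fold change and the adjusted p-value were used, to count the authors' calls. Input libraries were not used here.

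Each table was fitted as a whole with edgeR 4.0.16 (R 4.3.3) after filterByExpr with a minimum count of 10 and TMM, with the groups as the only term. POSR1 and POSR2 were fitted once as 1 group and once as 2. Interactions were fitted on regions matched by a reciprocal overlap of 50%. The SE is the log2 fold change divided by the square root of F. Scripts were tested on simulated counts. Replicates of a group had log2 CPM correlations of 0.931 to 0.982, and the chi-square of their counts per degree of freedom was 1.10 to 4.77, so each was counted as a library of its own. The regions named by rule were the 3 called with the largest change in each direction at or above their table's median level, the highest of each table, those found in all 6 H3K27ac tables and those called in an interaction. JUNB sites were named by level and by change in the same way. Any other region or site was named after its values were seen. Alternatives were RLE factors, library totals, DESeq2 1.42.0, no filter, a replicate block and leaving out each library, and for interactions the factors of each full table and a reciprocal overlap of 80%. Those for the separate POSR1 and POSR2 fits were added after seeing the data. The members, lists and tests were chosen with earlier results of these data known.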

Additional observations from a re-analysis of the deposited data

Results flagged for a closer look

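The H3K27ac response to trametinib differed between NEG and POS cells at 5 members after 24 hours and at 10 on day 14, by edgeR's quasi-likelihood test of the interaction with an adjusted p under 0.05. After 24 hours the difference on the log2 scale, NEG minus POS, was -0.91 in region 11, 0.47 in region 16, -2.33 in region 23, 1.55 in region 43 and 0.60 in region 47. On day 14 it was -0.98 in region 8, -1.11 in region 13, 0.70 in region 15, 1.18 in region 16, -0.90 in region 18, -3.27 in region 23, -1.94 in region 25, -2.44 in region 35, 1.44 in region 43 and -1.78 in region 47. Regions 16, 23, 43 and 47 differed in both arms, and region 47 with opposite signs. After 24 hours the calls of regions 16 and 47 were lost with DESeq2 and without some single libraries. That of region 16 was also lost with RLE factors. Region 11 lost its call without trametinib replicate 1 or DMSO replicate 2 of NEG. On day 14 regions 8, 13 and 18 lost theirs with the factors of each full table. Region 18 also lost it with library totals and without day 0 replicate 1 of POS.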

How the results depend on the processing

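Over 78 values of named regions and their 891 alternative settings, 842 kept the direction and the side of the threshold, 42 lost the call, 3 gained one and 4 changed sign. For the response of each H3K27ac table, these values covered only the largest called changes at or above the median level and the highest region. Regions named only because they were found in all 6 tables were left out there. Since values were picked for size, these counts do not measure the stability of the smaller calls. The sign changes were all in region 15 between POS and NEG, a value near 0 that was never called. It was 0.0089 with the replicate block, 0.045 without POS replicate 2, 0.054 without POS replicate 3 and 0.083 without NEG replicate 2, and leaving out each library gave -0.092 to 0.083. With DESeq2 the members called numbered 11 in the acute NEG, 5 in the chronic NEG and 3 in the acute interaction comparison. Calls over all regions fell with it too, from 19878 to 10151, from 13698 to 7493 and from 4650 to 3193. POSR1 and POSR2 with separate means gave 17 for POSR against POS, where calls over all regions went from 19204 to 31919. Leaving out 1 library gave 7 to 13 for chronic NEG, 7 to 11 for POSR against POS, 9 to 15 for POSR1 over POS and 3 to 8 for the acute interaction. The replicate numbers were tried as a block and gave 6 for POSR against POS and 11 for POSR1 over POS, with all other counts within 1.5 times. Over all regions the block moved the calls of these 2 comparisons from 19204 to 6777 and from 29909 to 24071. Deviations of same-numbered libraries of the acute POS comparison correlated with r of 0.12, 0.38 and -0.01. The labels do not say whether the numbers pair samples, and these mixed values cannot decide it. Library totals moved the median of all regions to -0.19 for POS against NEG, -0.13 for POSR1 over POS and 0.34 for the chronic interaction. The factors of each full table moved it to 0.11 for the acute interaction. Regions and sites with 1 to 3 reads in a library have imprecise fold changes at this depth.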
